A study of Homo sapiens with 6 samples.

Results

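Cholesterol and fatty acid synthesis was followed in RNA sequencing counts of A549 cells through 37 genes, 16 sterol enzymes, 6 regulators and sterol transport genes and 15 fatty acid enzymes. The genes were chosen by name, as enzymes of the 2 branches with the regulators of SREBP, and all 37 were found by symbol among the 57773 genes of the deposited table. A549 cells come from a human lung adenocarcinoma, are widely used as an alveolar epithelial model, and were grown here in serum-containing RPMI medium. The rhSP-D group was exposed to recombinant human surfactant protein D, a secreted collectin of the airspace, at 10 µg/ml for 48 h. For the vehicle group, the protein's elution buffer alone was added, matched for volume and left for the same 48 h, and each group held 3 samples of this 1 cell line. All 37 genes passed the filter on low counts.

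Sterols and fatty acids are both built from cytosolic acetyl-CoA. The sterol branch condenses it into mevalonate, farnesyl diphosphate, squalene and finally cholesterol, and the fatty acid branch carboxylates it to malonyl-CoA, from which long acyl chains are made, elongated and desaturated. Transcription of both branches is driven by the sterol regulatory element-binding proteins, made from SREBF1 and SREBF2, which are held in the endoplasmic reticulum by INSIG proteins and escorted by SCAP to the Golgi for cleavage when membrane sterol is low. In alveolar epithelium the same pathways supply the lipids of surfactant.

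The promoters of 4 members are printed to show which known motifs they hold: SREBF2 and INSIG1 are regulators that were lower in rhSP-D, SCD is the fatty acid enzyme with the smallest p, and FDPS is a sterol enzyme that hardly differed. Each is the RefSeq sequence from 250 bases before to 50 after the annotated start (build GRCh38.p14), at chr22:41832855-41833154 for SREBF2, chr7:155297628-155297927 for INSIG1, chr10:100346983-100347282 for SCD and chr1:155308616-155308915 for FDPS, all on the plus strand. Capitals mark 3 motifs on either strand: the sterol regulatory element TCACNCCAC, the E-box CACGTG and the CCAAT box, which reads ATTGG on the opposite strand. Counting exact matches alone, only SREBF2 of the 4 holds the sterol element and only INSIG1 the E-box. SCD and FDPS hold exact matches to the CCAAT box alone of these 3 motifs. Sites that differ from these letters were not searched for, so a window without a match may still hold a sterol element.
SREBF2: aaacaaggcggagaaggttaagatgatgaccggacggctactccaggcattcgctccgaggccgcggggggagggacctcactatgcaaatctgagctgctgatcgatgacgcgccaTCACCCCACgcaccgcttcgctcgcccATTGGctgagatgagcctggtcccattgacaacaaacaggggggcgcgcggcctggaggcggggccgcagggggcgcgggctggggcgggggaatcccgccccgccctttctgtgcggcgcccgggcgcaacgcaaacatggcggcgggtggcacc
INSIG1: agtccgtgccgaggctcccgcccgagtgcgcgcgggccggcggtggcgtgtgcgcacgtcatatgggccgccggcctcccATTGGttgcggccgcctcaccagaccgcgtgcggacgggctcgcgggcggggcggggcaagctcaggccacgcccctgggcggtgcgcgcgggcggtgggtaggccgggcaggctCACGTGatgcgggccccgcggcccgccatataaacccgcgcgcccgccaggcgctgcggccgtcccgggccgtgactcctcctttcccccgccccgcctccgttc
SCD: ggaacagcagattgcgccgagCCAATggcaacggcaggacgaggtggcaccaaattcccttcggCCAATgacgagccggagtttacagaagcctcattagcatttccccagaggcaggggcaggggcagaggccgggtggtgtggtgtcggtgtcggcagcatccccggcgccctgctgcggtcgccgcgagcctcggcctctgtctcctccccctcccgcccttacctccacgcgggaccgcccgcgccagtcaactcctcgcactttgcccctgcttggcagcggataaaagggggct
FDPS: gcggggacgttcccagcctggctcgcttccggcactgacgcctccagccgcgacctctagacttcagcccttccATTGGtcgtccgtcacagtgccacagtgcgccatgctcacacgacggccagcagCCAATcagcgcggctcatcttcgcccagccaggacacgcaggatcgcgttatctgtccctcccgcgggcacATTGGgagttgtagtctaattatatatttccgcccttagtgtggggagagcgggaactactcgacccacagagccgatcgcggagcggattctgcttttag
A window was found for 34 of the 37 members and 51 windows in all, since 11 members have several starts; windows of FASN, SQLE and FDFT1 were not used here. An exact match to the sterol element was found in 2 of the 51 windows, those of SREBF2 and of 1 start of ACSL1. The share was 1.02% for the 15189 windows of tested genes. The E-box was in 3 of 19 windows of sterol enzymes (15.8%) and 1 of 25 windows of fatty acid enzymes (4%), against 9.12% of windows of tested genes. The 3 sterol windows belong to 2 genes, LSS and SC5D, since overlapping windows of SC5D hold the same match. The CCAAT box, bound by NF-Y, which acts with SREBP, was in 14 of 19 windows of sterol enzymes (73.7%) and 12 of 25 windows of fatty acid enzymes (48%), against 34.3% of windows of tested genes. The GC box GGGCGG, bound by Sp1 and not capitalised here, was in 17 of 19 and 18 of 25 windows, against 64.9%. Different motifs of these 4 overlapped each other in 1 of the 51 windows. A match describes the letters of the window and was not tested for binding.

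Total counts ranged from 18599955 to 26030880 in rhSP-D and from 11396193 to 19803697 in vehicle, whose replicate 1 was the shallowest library. Every pair of libraries differed by more than sampling noise: the chi-square per degree of freedom was 1.88 to 2.12 for pairs of 1 group and 3.88 to 6.21 for pairs across groups. The epithelial markers KRT8, KRT18 and CDH1 were present (KRT8 at 5145 CPM in rhSP-D and 5043 CPM in vehicle), while EPCAM and KRT19 were under 2 CPM in both groups. Of 5 alveolar type II markers SFTPB, SFTPC, NKX2-1 and LAMP3 were too scarce to test. The remaining one, ABCA3, was present at 75.6 CPM in rhSP-D and 79.9 CPM in vehicle and did not pass (edgeR adjusted p = 0.144). Summed CPM of 5 leukocyte markers, nearly all of it CD68 (92.4 CPM in rhSP-D and 84.4 CPM in vehicle, edgeR adjusted p = 0.0161), was 93.0 to 98.4 in rhSP-D and 84.6 to 90.6 in vehicle, that of 5 fibroblast markers was 13.2 to 14.2 and 10.5 to 14.7, and that of 4 endothelial markers was 0.0545 to 0.273 and 0 to 0.112; DCN was at 0 in all 6 samples. Their part in the results was not tested. CPM are counts per 1000000 counts of the TMM-scaled library. In bulk RNA fewer cells of a type and less RNA per cell cannot be told apart.

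The question here is how transcripts of lipid synthesis differed between cells exposed to the collectin and cells given its buffer. Of the 37 genes 12 fell and 1 rose (13, or 35.1%), where 15.9% of all 15848 tested genes changed, 6.63% downward and 9.31% upward, at an adjusted p under 0.05 in edgeR's quasi-likelihood test. The 3 rhSP-D values lay wholly below the 3 vehicle values for 18 of the 37 and wholly above for 2, where 15.4% and 16.2% of all tested genes separated in these directions and 31.5% in either. The log2 changes of the 37 ran from -0.24 to 0.17 with a median of -0.08, against a median of -0.006 over all tested genes. Fatty acid enzymes made up most of the falls, with 8 of 15 lower and none higher, sterol enzymes had 2 of 16 lower and 1 higher, and regulators and sterol transport had 2 of 6 lower. The median vehicle level was 92.1 CPM for fatty acid enzymes, 43.4 CPM for sterol enzymes and 18.4 CPM for all tested genes. Small changes pass more readily in abundant genes, so these shares are not matched for level. The part of level in them was not tested. With library totals alone in place of TMM scaling, 16 of the 37 fell and none rose, while over all tested genes 856 rose and 1961 fell, against 1475 and 1051 with TMM.

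**Figure D1:**
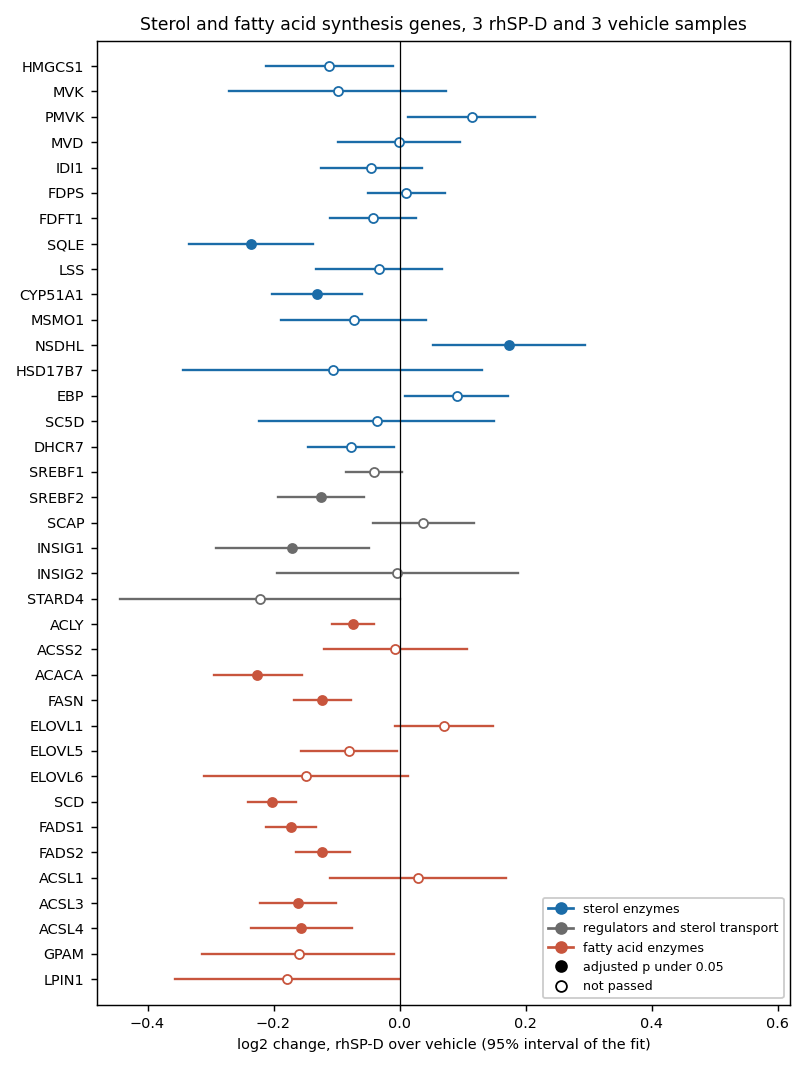
Log2 change of each of the 37 genes, rhSP-D over vehicle (horizontal axis), with the 95% interval of the edgeR fit, 3 samples per group; colours mark the 3 groups of genes and filled points passed an adjusted p of 0.05. Filled points lie left of 0 for 12 genes and right of 0 for NSDHL.

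Among fatty acid enzymes all 3 desaturases fell. SCD (ENSG00000099194, chromosome 10, 100347124 to 100364834), the stearoyl-CoA desaturase that makes monounsaturated from saturated acyl chains, had 666, 697 and 675 CPM in rhSP-D replicates 1 to 3, against 791, 772 and 783 CPM in vehicle replicates 1 to 3. The groups did not overlap, and the highest rhSP-D value stood well below the lowest vehicle value. SCD averaged 679 ± 15.7 CPM in rhSP-D and 782 ± 9.71 CPM in vehicle (SD, n = 3 each), and fell by 13.1% with a 95% interval from -15.4% to -10.8% (edgeR log2 change -0.20 ± 0.02 SE, adjusted p = 6.04e-09). FADS1 (ENSG00000149485, chromosome 11, 61799625 to 61829318), the delta-5 desaturase of polyunsaturated fatty acids, had 373, 382 and 380.4 CPM in rhSP-D, against 426, 428 and 425 CPM in vehicle. It fell by 11.3% (edgeR log2 change -0.17 ± 0.02 SE, adjusted p = 2.20e-07), and both groups were narrow beside the gap between them. FADS2 (ENSG00000134824, chromosome 11, 61792980 to 61867354), the delta-6 desaturase of the same route, had 414, 399 and 399.7 CPM in rhSP-D, against 452, 435 and 436 CPM in vehicle. Its groups did not overlap and it fell by 8.14% (edgeR log2 change -0.12 ± 0.02 SE, adjusted p = 1.12e-04). Exons of FADS1 and FADS2 overlap on opposite strands over 490 nt, and the strand setting of the counting is not known, so some reads may be shared.

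Transcripts of ACACA and FASN fell too, along with those of ACLY. ACACA (ENSG00000132142), acetyl-CoA carboxylase 1, which makes malonyl-CoA, had 92.5, 93.7 and 86.9 CPM in rhSP-D, against 106, 109 and 105 CPM in vehicle. The groups did not overlap and ACACA fell by 14.5%, from -18.5% to -10.2% in the 95% interval (edgeR log2 change -0.23 ± 0.03 SE, adjusted p = 2.11e-05). FASN (ENSG00000169710, chromosome 17, 82078333 to 82098332), the synthase that builds palmitate from malonyl-CoA, had 302, 311 and 297 CPM in rhSP-D, against 335, 330.1 and 325 CPM in vehicle, again without overlap. FASN fell by 8.14% (edgeR log2 change -0.12 ± 0.02 SE, adjusted p = 2.24e-04). ACLY (ENSG00000131473, chromosome 17, 41866908 to 41930542), the citrate lyase that supplies cytosolic acetyl-CoA to both branches, was the most abundant member per length. It had 879, 887 and 892 CPM in rhSP-D, against 937, 930.0 and 932 CPM in vehicle, and it fell by 5.02%, the smallest change that passed (log2 change -0.07 ± 0.02 SE, adjusted p = 0.0016 in edgeR). ACSS2, which makes acetyl-CoA from acetate, averaged 30.8 ± 1.70 CPM in rhSP-D and 30.8 ± 0.786 CPM in vehicle (SD, n = 3 each), with a 95% interval of its difference from -7.98% to 7.69%.

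Of 3 long-chain acyl-CoA synthetases, which activate free fatty acids, 2 fell. ACSL3 (ENSG00000123983, chromosome 2, 222860934 to 222944639) had 109, 112 and 108 CPM in rhSP-D, against 122.6, 122.7 and 122.5 CPM in vehicle, where the 3 samples were almost equal. It fell by 10.6% (edgeR log2 change -0.16 ± 0.03 SE, adjusted p = 2.31e-04). ACSL4 (ENSG00000068366, chromosome X, 109624244 to 109733403), which prefers arachidonic acid, had 61.8, 60.4 and 59.98 CPM in rhSP-D, against 68.8, 64.97 and 69.6 CPM in vehicle. Its groups did not overlap and it fell by 10.2% (edgeR log2 change -0.16 ± 0.04 SE, adjusted p = 0.00609). With vehicle replicate 3 left out ACSL4 did not pass (log2 change -0.13, edgeR adjusted p = 0.0653), and the number of lower fatty acid enzymes was then 7. ACSL1 was at 20.9 ± 0.963 CPM in rhSP-D and 20.4 ± 0.698 CPM in vehicle (SD, n = 3 each) and did not pass, with an interval from -7.35% to 12.4%.

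No elongase passed: ELOVL1, ELOVL5 and ELOVL6, which lengthen acyl chains made by FASN or taken up, had log2 changes of 0.07, -0.08 and -0.15 (edgeR adjusted p = 0.233, 0.153 and 0.223). GPAM and LPIN1, an acyltransferase and a phosphatidate phosphatase on the way to glycerolipids, had the rhSP-D values wholly below the vehicle values, at log2 changes of -0.16 and -0.18 with SEs of 0.07 and 0.09, and did not pass (edgeR adjusted p = 0.152 and 0.176). Both were scarce, with mean levels of 18.7 and 12.3 CPM in rhSP-D and 21.1 and 13.98 CPM in vehicle. The lowest vehicle mean among the 8 fatty acid enzymes that fell was 67.8 CPM, so the calls lie among the abundant members, whose SEs are smaller.

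**Figure D2:**
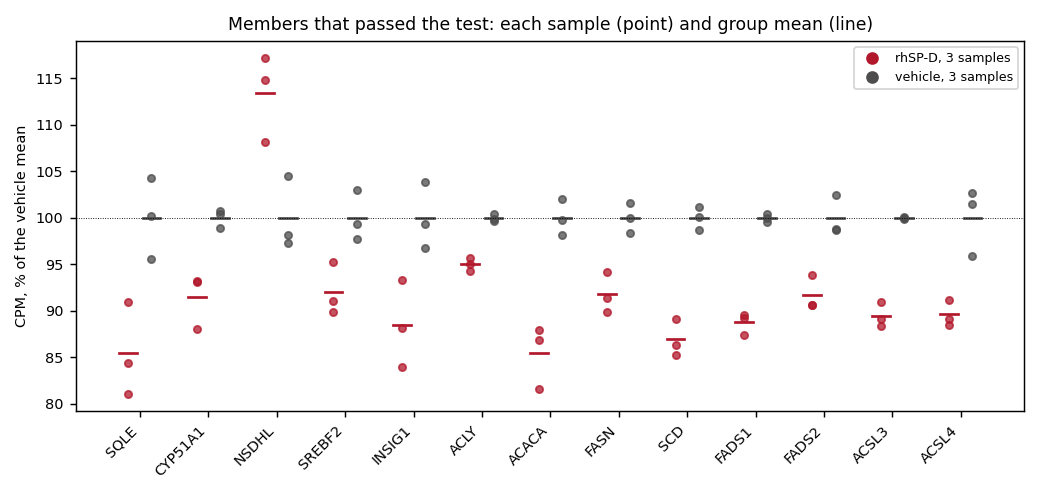
CPM of the 13 genes that passed, as a percentage of the vehicle mean of each gene (vertical axis), with every sample as a point and each group mean as a line; rhSP-D stands left of vehicle for each gene. The groups do not overlap for any of the 13, which were picked by the test on these same values, so this is no separate evidence. Of all tested genes 31.5% separate in either direction. NSDHL is the gene whose rhSP-D samples lie above its vehicle samples.

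In the sterol branch the enzymes up to farnesyl diphosphate did not pass the test, and 3 of the 10 enzymes from squalene on did. For the branch as a whole that is 3 of 16, or 18.8%, near the 15.9% of all tested genes that changed. HMGCS1 (ENSG00000112972, chromosome 5, 43289395 to 43313512), the synthase that opens the mevalonate route, had 38.9, 36.6 and 36.7 CPM in rhSP-D, against 38.4, 40.7 and 41.7 CPM in vehicle. Vehicle replicate 1 lay within the rhSP-D range, so the groups overlapped, and the log2 change was -0.11 ± 0.05 (SE, edgeR adjusted p = 0.134). The kinases and decarboxylase that convert mevalonate, MVK, PMVK and MVD, were at log2 changes of -0.10, 0.11 and -0.001, and IDI1 and FDPS, which isomerise and join the isoprene units, at -0.04 and 0.01. FDPS had 121, 123 and 126 CPM in rhSP-D, against 124, 124 and 120.0 CPM in vehicle, with a 95% interval of the difference from -3.42% to 5.09%. IDI1 had all rhSP-D values below all vehicle values and did not pass (edgeR adjusted p = 0.501). PMVK passed without vehicle replicate 2 (log2 change 0.18, edgeR adjusted p = 0.0181). With trends on gene length and GC content removed, as described below, the log2 change of PMVK was -0.01 (edgeR adjusted p = 0.923).

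SQLE (ENSG00000104549, chromosome 8), squalene epoxidase, a rate-limiting oxygen-dependent step, had 43.1, 46.5 and 41.4 CPM in rhSP-D, against 48.8, 53.3 and 51.2 CPM in vehicle. All 3 rhSP-D samples were lower than every vehicle sample. SQLE averaged 43.7 ± 2.57 CPM in rhSP-D and 51.1 ± 2.23 CPM in vehicle (SD, n = 3 each) and fell by 15.1%, from -20.7% to -9.06% in the 95% interval (edgeR log2 change -0.24 ± 0.05 SE, adjusted p = 8.21e-04). CYP51A1 (ENSG00000001630, chromosome 7, 92112151 to 92134803), which removes the 14-alpha methyl group of lanosterol, had 78.1, 82.6 and 82.7 CPM in rhSP-D, against 89.04, 89.3 and 87.7 CPM in vehicle. It fell by 8.70% (edgeR log2 change -0.13 ± 0.04 SE, adjusted p = 0.0092) but the call was lost when rhSP-D replicate 1 was left out (log2 change -0.10, edgeR adjusted p = 0.0889). NSDHL (ENSG00000147383, chromosome X, 152830967 to 152869729), which acts with MSMO1 and HSD17B7 in removing the methyl groups at carbon 4, was the one member that rose.

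NSDHL had 27.7, 29.3 and 29.96 CPM in rhSP-D, against 25.1, 24.9 and 26.7 CPM in vehicle, a rise of 12.8% without overlap (edgeR log2 change 0.17 ± 0.06 SE, adjusted p = 0.0421). That call was close to the threshold and was lost when rhSP-D replicate 2 or 3 was left out (log2 changes 0.16 and 0.15, edgeR adjusted p = 0.107 and 0.154), when vehicle replicate 1 or 2 was left out (0.16 and 0.15, adjusted p = 0.0952 and 0.145), and in DESeq2 (0.18, adjusted p = 0.127). MSMO1 and HSD17B7, its partners, were at log2 changes of -0.07 and -0.11 and did not pass (edgeR adjusted p = 0.440 and 0.608). Reads of HSD17B7, at 7.05 ± 0.401 CPM in rhSP-D and 7.66 ± 0.565 CPM in vehicle (SD, n = 3 each), can be shared with its pseudogene HSD17B7P2, listed at 2.38 and 2.52 CPM.

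The other late enzymes did not pass. FDFT1, the squalene synthase, and DHCR7, which reduces 7-dehydrocholesterol to cholesterol, had all rhSP-D values below all vehicle values, at log2 changes of -0.04 and -0.08 (edgeR adjusted p = 0.455 and 0.122). EBP, the sterol isomerase, separated the other way at 0.09 (edgeR adjusted p = 0.129). LSS, the cyclase that makes lanosterol, and SC5D, a sterol desaturase, overlapped between the groups at log2 changes of -0.03 and -0.04.

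The regulators were lower in part. SREBF2 (ENSG00000198911, chromosome 22, 41833079 to 41907308), whose product mainly drives sterol genes, had 95.5, 99.9 and 94.3 CPM in rhSP-D, against 103, 104 and 108 CPM in vehicle. It fell by 8.29%, from -12.5% to -3.85% in the 95% interval (edgeR log2 change -0.12 ± 0.03 SE, adjusted p = 0.00918). SREBF1 (ENSG00000072310, chromosome 17, 17810399 to 17837002), whose products include the main driver of fatty acid genes, had 363, 357 and 347 CPM in rhSP-D, against 374, 361 and 364 CPM in vehicle, so rhSP-D replicate 1 overlapped the vehicle range. Its log2 change was -0.04 ± 0.02 (SE, edgeR adjusted p = 0.227), with an interval from -5.73% to 0.267%. The counts do not separate the isoforms of SREBF1, and cleavage of the proteins was not analysed here.

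INSIG1 (ENSG00000186480, chromosome 7, 155297776 to 155310235), which retains SCAP in the endoplasmic reticulum and is itself an SREBP target, had 25.3, 24.1 and 26.8 CPM in rhSP-D, against 29.9, 28.6 and 27.8 CPM in vehicle. The groups did not overlap, and INSIG1 fell by 11.1% just under the threshold (edgeR log2 change -0.17 ± 0.06 SE, adjusted p = 0.0496). INSIG2, a second retention factor, had 10.5, 12.5 and 11.3 CPM in rhSP-D, against 11.1, 11.99 and 11.1 CPM in vehicle, and SCAP had 69.6, 69.4 and 70.4 CPM in rhSP-D, against 64.03, 70.5 and 68.3 CPM in vehicle. Both overlapped between the groups (edgeR adjusted p = 0.988 and 0.580). STARD4, a sterol carrier that is also an SREBP2 target, was at 8.43 ± 1.17 CPM in rhSP-D and 9.85 ± 0.409 CPM in vehicle (SD, n = 3 each), with an interval from -26.5% to 0.0442%. With 1 library left out, SREBF2 did not pass without rhSP-D replicate 1, rhSP-D replicate 3 or vehicle replicate 3 (edgeR adjusted p = 0.0547, 0.0503 and 0.0987). INSIG1 passed only when rhSP-D replicate 3 was the library left out, and its edgeR adjusted p was 0.134 and 0.171 without rhSP-D replicates 1 and 2 and 0.146, 0.105 and 0.0754 without vehicle replicates 1, 2 and 3. The number of regulators that passed was therefore 0 without rhSP-D replicate 1 or vehicle replicate 3 and 1 without any other single library.

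Set side by side, the fatty acid enzymes had a median log2 change of -0.15 and the sterol enzymes of -0.04, a difference of 0.11 that was not tested, since the members were chosen by name with earlier results of these data known. Below 0 were 13 of the 15 fatty acid enzymes and 12 of the 16 sterol enzymes, where 8180 of the 15848 tested genes were below 0. Sums of CPM over a branch follow its abundant genes. The fatty acid enzymes summed to 3164, 3219 and 3177 CPM in rhSP-D, against 3519, 3467 and 3482 CPM in vehicle, a difference of -8.67% between the means, and the sterol enzymes to 795, 809.9 and 809 CPM in rhSP-D, against 823, 841 and 810.1 CPM in vehicle, a difference of -2.47%. The 8 changed fatty acid enzymes supplied 91.4% of their branch's sum in rhSP-D and 92% in vehicle, while the 3 changed sterol enzymes supplied 19.1% and 20%. By step, the desaturases summed to 1462 ± 13.9 CPM in rhSP-D and 1649 ± 17.9 CPM in vehicle, and the sterol steps up to farnesyl diphosphate to 327 ± 2.22 and 329 ± 8.60 CPM (SD, n = 3 each). The difference between the branch medians was 0.065 without vehicle replicate 1 and 0.063 without vehicle replicate 3.

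**Figure D3:**
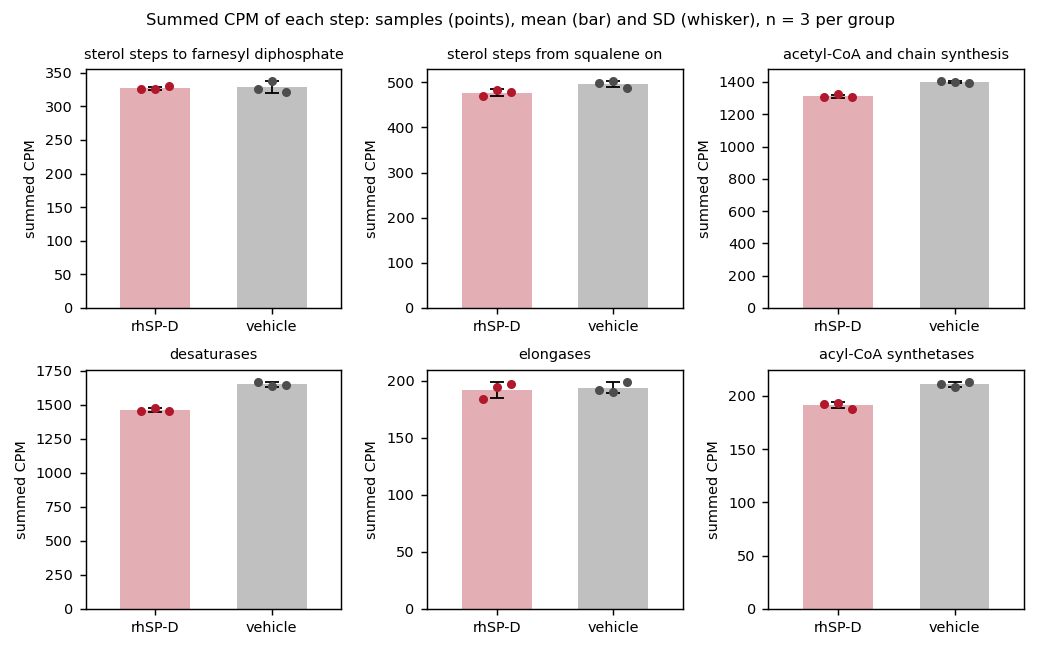
Summed CPM of the genes of 6 steps in each sample (points), with the mean (bar) and SD (whisker) of 3 samples per group, rhSP-D left of vehicle; every vertical axis starts at 0. The groups separate for acetyl-CoA and chain synthesis, desaturases, acyl-CoA synthetases and the sterol steps from squalene on, and they overlap for the elongases and the sterol steps to farnesyl diphosphate.

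Gene length differed between the branches. The median exonic length was 7240 nt for fatty acid enzymes, 4325 nt for sterol enzymes and 4666 nt for all tested genes, and the median GC content was 47.4%, 49.5% and 48.9%. With trends on length and GC content removed from each library, 6 of 15 fatty acid enzymes were lower (ACLY, ACACA, FASN, SCD, FADS1 and FADS2) and the median of the branch was -0.08. The sterol enzymes then had 2 of 16 lower and a median of -0.05, so that the branch medians differed by 0.03, and 9 of the 37 members passed in all. In the same fit 10.1% of all 15473 genes passed, 1053 higher and 517 lower. The 2 of 16 sterol enzymes were near that share in either direction, but both were lower, the less frequent direction over all genes. ACSL3 and ACSL4 no longer passed (log2 changes -0.08 and -0.08, edgeR adjusted p = 0.0758 and 0.197), nor did CYP51A1 (log2 change -0.10, edgeR adjusted p = 0.0524), NSDHL (0.12, adjusted p = 0.222) or INSIG1 (-0.16, adjusted p = 0.0891), while DHCR7 did (-0.13, adjusted p = 0.00737). SCD remained at a log2 change of -0.17 (edgeR adjusted p = 2.31e-08), ACACA at -0.16 (adjusted p = 0.00127) and SQLE at -0.22 (adjusted p = 0.00242).

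**Figure D4:**
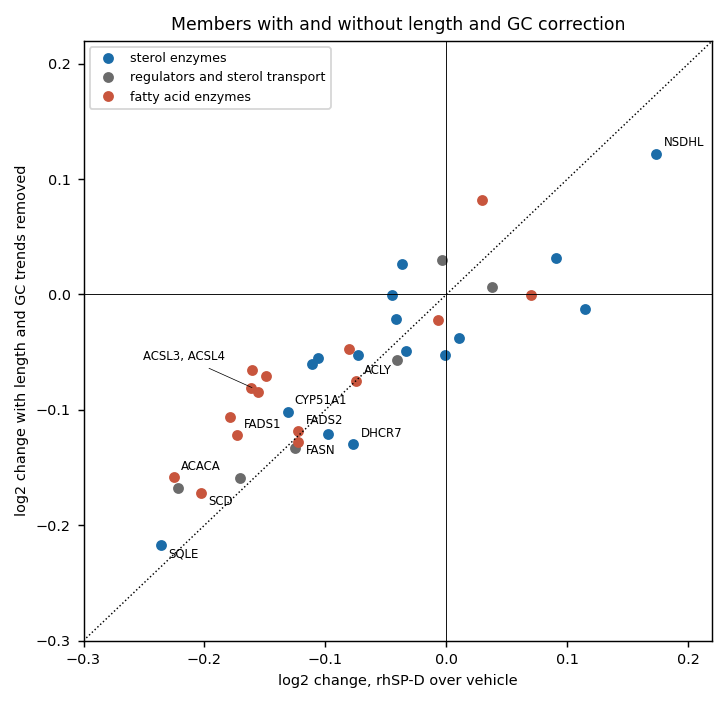
Log2 change of the 37 genes, rhSP-D over vehicle, as fitted (horizontal axis) and with length and GC trends removed from each library (vertical axis); the dotted line marks equal values. Of the 15 fatty acid enzymes 11 lie above the line, among them ACSL3 and ACSL4, while DHCR7 lies below it.

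Per kilobase of merged annotated exon, ACLY stood highest among the 37 at 169.8 CPM per kb in rhSP-D and 179 CPM per kb in vehicle. This length takes in the exons of every annotated isoform, expressed or not, so the order of genes depends on the annotation. SCD followed at 127 and 146 CPM per kb, SREBF1 at 44.3 and 45.6, FADS1 at 36.98 and 41.7 and FADS2 at 36.7 and 40.0 CPM per kb. The sterol enzymes reached at most 36.4 CPM per kb in rhSP-D and 33.6 CPM per kb in vehicle, both in PMVK, and LPIN1 stood lowest of all members at 1.04 and 1.18 CPM per kb. INSIG1 was the lowest on this scale of the members that passed, at 6.96 CPM per kb in rhSP-D and 7.87 CPM per kb in vehicle, and none of the members below it passed.

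Further genes of the pathway were listed by role. Of 77 genes 76 were tested, of which 9 rose and 9 fell (18, or 23.7%), where 15.9% of all tested genes changed, 9.31% upward and 6.63% downward, and their median log2 change was -0.03. The even split was not stable, since 5 rose and 15 fell with library totals alone, and 6 rose and 2 fell with length and GC trends removed. Among 13 other sterol genes LBR, a nuclear envelope protein with sterol reductase activity, fell by 10.6% (edgeR log2 change -0.16 ± 0.04 SE, adjusted p = 0.00516), and NPC2, which carries cholesterol out of lysosomes, rose by 16% (edgeR log2 change 0.21 ± 0.04 SE, adjusted p = 9.3e-05). Of 22 tested genes of fatty acid and glycerolipid synthesis outside the module, ACACB, the second acetyl-CoA carboxylase, fell by 15.1% and ME1, a source of NADPH, fell by 9.30%, while TECR, the reductase of chain elongation, rose by 10.1% and AGPAT2 and GPAT4, acyltransferases of glycerolipid synthesis, by 9.26% and 7.29%.

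In the lists of 8 to 13 genes that follow, a few calls each stand against 15.9% of all tested genes, and nothing particular to a list can be read from them. Of 9 genes of SREBP processing and turnover 2 fell and none rose, where 6.63% of all tested genes fell. They were MBTPS2, the site-2 protease that releases the active factor, which fell by 12.7%, and C12orf49, also called SPRING1, which is needed for SREBP processing and fell by 19.2% (edgeR log2 change -0.31 ± 0.09 SE, adjusted p = 0.0155). Of 8 genes of liver X receptors and their targets 2 rose, the receptor NR1H2 by 8.08% and APOE, which was scarce at 4.42 CPM in rhSP-D and 3.02 CPM in vehicle, by 44.6%. None of the 8 fell.

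Of 13 genes of fatty acid oxidation and PPAR signalling 2 rose. CPT1A, which admits long acyl chains to mitochondria, averaged 87.9 CPM in rhSP-D and 75.7 CPM in vehicle and rose by 15.4% (edgeR log2 change 0.21 ± 0.04 SE, adjusted p = 3.84e-04), and ACADVL, the very long-chain acyl-CoA dehydrogenase, rose by 11%. Of 11 genes of AMPK, AKT and mTOR, kinases that act on lipid synthesis, STK11 rose by 10.9% and PRKAA1 fell by 12.9% and MTOR fell by 8.90%. The number of changed genes over all these lists was 9 of 76 without rhSP-D replicate 1, where 10.4% of all genes changed, and 8 of 76 with length and GC trends removed, where 10.1% did, so in both fits it was near the share over all genes.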

How the data were processed

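Poly(A) RNA of 6 A549 samples, 3 rhSP-D and 3 vehicle by their titles, was measured by paired-end sequencing with NEBNext Ultra libraries, per the labels' protocols. The submitters' processing notes name cutadapt, STAR 2.7.0a, featureCounts 2.0.0 and the build GRCh38. Annotation release, strandedness and treatment of multi-mapped reads: not given in the sources used here. Raw whole-number counts per gene were deposited. Whether replicates were separate cultures is not stated, and p-values then reflect only how far these samples spread, possibly for technical reasons.

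Counts were filtered with filterByExpr (minimum count 10, minimum total 15), scaled by TMM factors and compared 2-sided in edgeR 4.0.16 (R 4.3.3) by a robust quasi-likelihood fit with Benjamini-Hochberg adjustment over 15848 genes. Fold changes are rhSP-D over vehicle, and SEs come from the test statistic. The procedure was also run on counts simulated without length or GC trends between libraries, so that run does not bear on such trends. Coordinates and merged exon lengths are those of GENCODE 29 (GRCh38), which need not match the authors' annotation; ACACA, whose identifier is not in GENCODE 29, was matched by symbol, and 15 of the 37 members overlap an exon of the opposite strand. The length and GC correction enters natural splines (5 degrees of freedom) on log2 exonic length and transcript GC as offsets for each library. Promoters are RefSeq sequences.

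Members and lists were chosen with earlier results of these data known, and some genes of the pathway are not reported here. All members could be named; values of every sample are given for those that passed and for SREBF1, SREBF2, SCAP, INSIG1, INSIG2, HMGCS1 and FASN, and of the other lists those that passed could be named. Alternatives were other scalings and filters, a replicate block, each library left out, DESeq2 1.42.0, limma-voom (limma 3.58.1), an adjusted p of 0.01 and the length and GC correction.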

Additional observations from a re-analysis of the deposited data

How the results depend on the processing

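SCD, FADS1, FADS2, FASN, ACACA, ACLY and SQLE kept their direction and passed under every alternative run. The number of changed members ran from 10 to 12 with 1 library left out and was 12 with the replicate block, 11 in DESeq2 and limma-voom and 16 with library totals alone, against 13; fatty acid enzymes numbered 7 or 8 and sterol enzymes 2 or 3 with 1 library left out. The number of regulators that passed, 2 in the fit as reported, was 1 with DESeq2 size factors, no filter on low counts, the replicate block, DESeq2, limma-voom, an adjusted p under 0.01 or the length and GC offsets, also with the replicate block, and ran from 0 to 1 with 1 library left out. Over the other pathway lists the number of changed genes was 8 with length and GC offsets and 7 with the replicate block as well, and ran from 9 to 15 with 1 library left out, against 18. The difference between the medians of sterol and fatty acid enzymes was 0.11, 0.03042 with the offsets, 0.03129 with offsets and block, and from 0.06294 to 0.1244 with 1 library left out. Over all genes 2526 changed, 1570 with the offsets, 1534 in DESeq2 and 1465 at an adjusted p under 0.01; of the changed genes 58.4% were higher, and 30.4% with library totals alone. The cause of these shifts was not tested. Same-numbered samples did not deviate together (correlations from -0.0795 to 0.0268), so the block tests no pairing known from the design; it moved the count over all genes to 2319. Depth limits HSD17B7, STARD4, SC5D, INSIG2 and LPIN1, with SEs from 0.09 to 0.12 on the log2 scale.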
